A study of Sus scrofa with 2 samples.

Results

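Cultured adipose-derived stem cells (ADSCs) of Bama miniature pigs, spindle-shaped progenitors expanded from the stromal cells of fat, were examined for cells with high levels of glycolysis and hypoxia genes. Cells were ranked within each of 2 single-cell RNA libraries by a 5-gene score, the summed counts of LDHA, TPI1, PGAM1, ALDOA and ADM over the total counts of the cell. The cells described, called high-score cells here, were chosen by these measured values as the highest 5%. There were 479 high-score cells of 9581 in library 1 and 580 of 11598 in library 2. Together these were 1059 of the 21179 barcodes with at least 5000 counts and of the 25207 barcodes deposited. They were set against the low-score cells, the lowest 25% by the same score in the same library, of which there were 2395 and 2900. The 5 score genes are therefore described without a test.

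The labels give 1 group of 2 libraries, with no treatment and no second genotype. About 5 g of chest fat was taken from anaesthetised animals, and the cells were grown for 3 generations within 14 days. Polyadenylated RNA was captured in droplets with 10x Genomics 3' chemistry, in which a droplet's RNA shares a barcode and copies of a single molecule share a random tag (unique molecular identifier, UMI) and are counted once. Separate animals or cultures are not named for the libraries. The only replication behind every p-value below is therefore how far differences between cell classes disagreed between these libraries, which may be technical. All 5 classes of cells were fitted together, and the spread was moderated across genes, which also affects the size of a p-value. The standard errors (SE) come from this fit and can be smaller than the spread of the 2 library values.

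Glycolysis splits glucose into pyruvate in the cytosol, and lactate dehydrogenase turns pyruvate into lactate, which regenerates the cofactor that lets the pathway run without oxygen. When oxygen is scarce, the hypoxia-inducible factors HIF1A and EPAS1 escape degradation, pair with ARNT and switch on many glycolytic genes together with genes of oxygen supply and mitochondrial restraint. ADSCs are known to tolerate low oxygen and to depend largely on glycolysis in culture, and HIF1A is also active in cells under other stimuli than low oxygen.

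Of the score genes, ALDOA encodes aldolase A, which cleaves fructose bisphosphate, TPI1 the isomerase of the resulting triose phosphates, PGAM1 a phosphoglycerate mutase and LDHA the A chain of lactate dehydrogenase. ADM encodes adrenomedullin, a secreted peptide that dilates blood vessels and is induced by hypoxia. In the RefSeq annotation of Sscrofa11.1, LDHA (chromosome 2, 40814163 to 40827284) and ADM (chromosome 2, 49229223 to 49231521) lie on the same chromosome. TPI1 lies on chromosome 5 (63839473 to 63842853), PGAM1 on chromosome 14 (108822782 to 108832818) and ALDOA on chromosome 3 (18246036 to 18260167).

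The score was continuous and the high-score cells were its upper end, not a separate group. The last cell inside scored 5153.3 UMIs per 1000000 in library 1 and the first outside 5153.2, and in library 2 both scored 4801.2. The median score was 5504 and 5128 in high-score cells of libraries 1 and 2, against 2575 and 2305 in low-score cells. Each score gene climbed through all 5 score classes in both libraries, from the lowest 25% through the classes of 25 to 50%, 50 to 75% and 75 to 95% to the highest 5%. LDHA, for example, was at 560, 808, 996, 1223 and 1546 UMIs per 1000000 of the class (CPM, the unit of all levels below) over these classes in library 1 and at 476, 724, 897, 1162 and 1478 CPM in library 2.

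**Figure D1:**
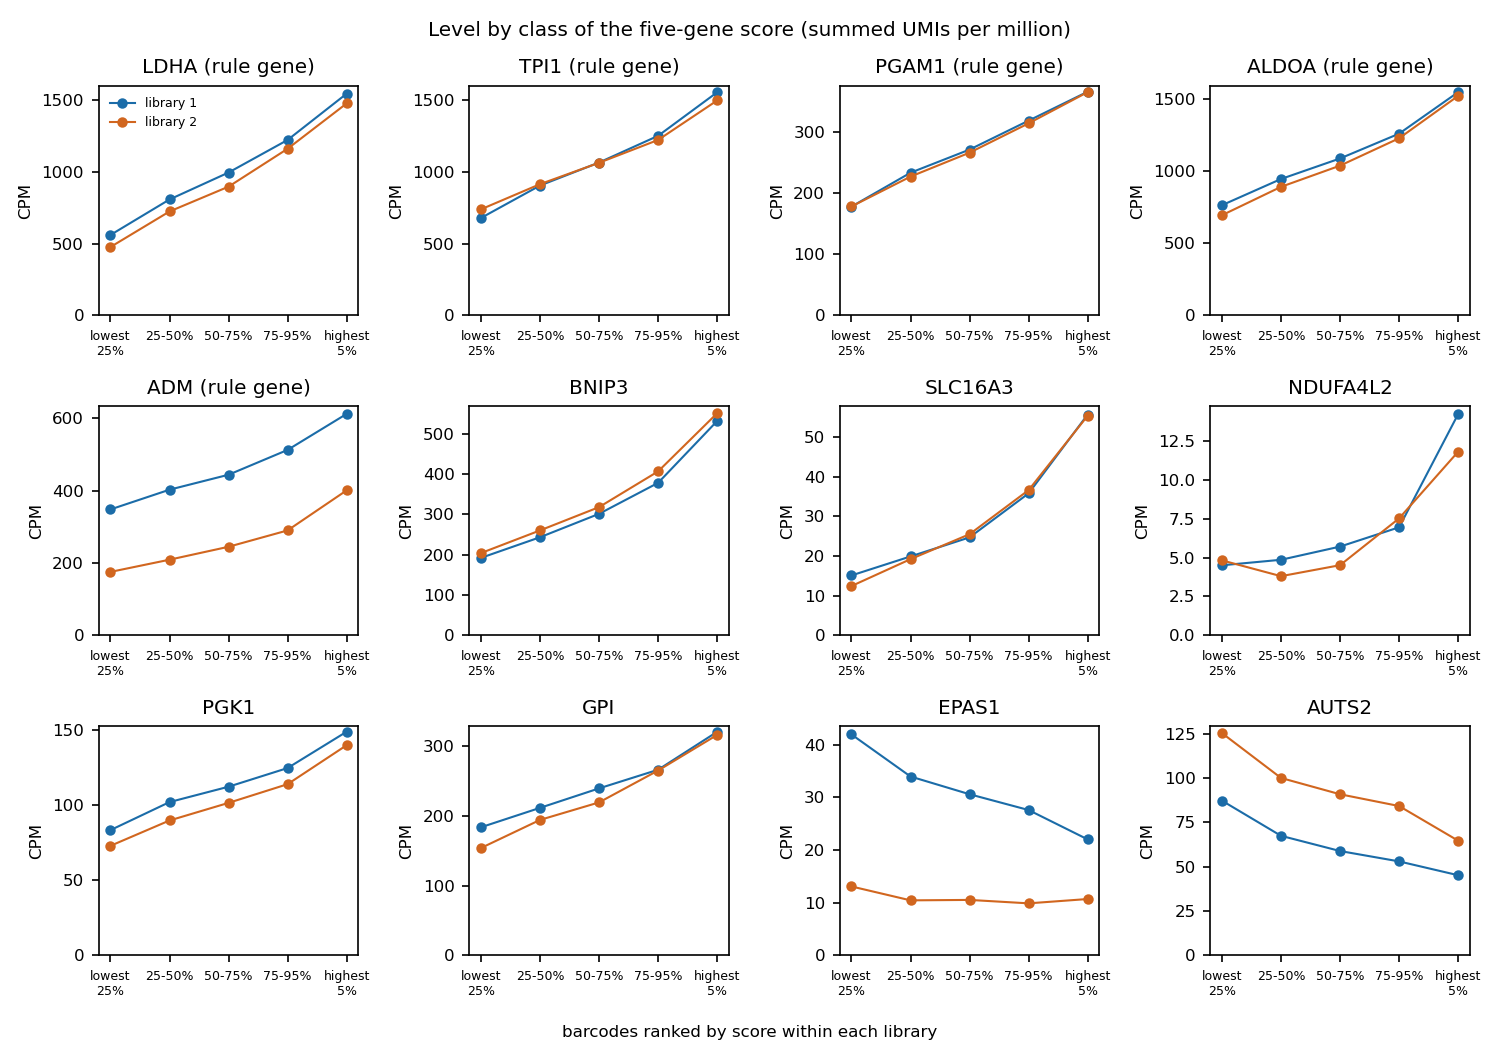
Level of 12 genes in CPM (summed UMIs per 1000000, vertical axis from 0) over the 5 classes of the 5-gene score (horizontal axis, low to high), 1 line per library. The 5 score genes climb by construction, BNIP3 and SLC16A3 climb with them to 532 and 551 CPM and to 55.7 and 55.4 CPM in the highest 5%, and AUTS2 declines to 45.2 and 64.7 CPM.

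LDHA, TPI1 and ALDOA made up most of the score. In high-score cells of libraries 1 and 2, ALDOA was at 1551 and 1525 CPM, against 765 and 696 CPM in low-score cells. TPI1 was at 1553 and 1496 CPM, against 678 and 738 CPM, and PGAM1 at 365 and 365 CPM, against 178 and 178 CPM. ADM was at 612 and 401 CPM in high-score cells, against 348 and 175 CPM in low-score cells, so that the high-score cells of library 2 lay only slightly above the low-score cells of library 1. ADM was the largest of the 5 contributors in 29 of 479 and 16 of 580 high-score cells, and LDHA in 169 and 200. Most high-score cells exceeded the 90th percentile of low-score cells for LDHA (93.3% and 94.5%), TPI1 (95.4% and 92.6%) and ALDOA (92.9% and 95.7%), but 54.1% and 55.2% did so for PGAM1 and 38.0% and 35.7% for ADM. ADM also varied most among high-score cells of library 1, with a 10th percentile of 120 CPM and a 90th of 1353 CPM, whereas TPI1 ranged from 1100 to 1969 CPM between the same percentiles.

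High-score cells had the stromal markers of the culture, most of them at lower CPM than low-score cells. The collagen gene COL3A1 was at 853 and 1149 CPM in high-score cells against 1110 and 1841 CPM in low-score cells. COL1A2 was at 1836 and 2672 CPM against 2293 and 3605 CPM, and CD44 at 167 and 156 CPM against 230 and 179 CPM. ENG was about even, at 70.1 and 77.2 CPM against 72.1 and 76.3 CPM. CPM lack the scaling used for the log2 fold changes, by which THY1 was about even. THY1 (CD90) was at 383 and 329 CPM in high-score cells and 396 and 347 CPM in low-score cells, PDGFRA, a receptor of mesenchymal progenitors, at 112 and 150 CPM against 135 and 169 CPM, and DCN, a matrix proteoglycan, at 696 and 713 CPM against 782 and 731 CPM. NT5E (CD73), a defining ADSC surface marker, was scarce in both, at 6.69 and 7.53 CPM in high-score cells and 6.80 and 7.44 CPM in low-score cells. Markers of other cell types were low in high-score cells: the summed level was 2.23 and 0.872 CPM for 6 fat cell genes (PLIN1 and LEP at 0), 18.6 and 21.5 CPM for 7 endothelial genes (CDH5 at 0, most of it PECAM1) and 31.5 and 25.6 CPM for 9 macrophage genes (CD163 and C1QA at 0, most of it CD14). The same sums in low-score cells were 3.49 and 1.79 CPM, 18.0 and 24.5 CPM, and 31.7 and 21.6 CPM. Mural genes summed to 22.5 and 32.6 CPM in high-score cells against 30.7 and 39.8 CPM in low-score cells, epithelial genes to 83.0 and 71.7 CPM against 72.2 and 68.1 CPM, nearly all of it KRT7, and mesothelial genes to 21.1 and 11.2 CPM against 14.9 and 10.9 CPM, nearly all of it KRT19. Lymphocyte genes summed to 1.30 and 1.19 CPM in high-score cells against 3.65 and 1.16 CPM in low-score cells, and Schwann cell, erythroid and muscle progenitor genes stayed below 1 CPM in both.

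Sequencing depth moved with the score. High-score cells held a median of 23186 and 22739.5 UMIs, against 15985 and 15791.5 in low-score cells, and the classes between held 19697 to 23733.5. Thinned to 5000 UMIs per cell, high-score cells had a median of 1953 and 1977 genes, against 2023 and 2034 in low-score cells. The 23 symbols with the mitochondrial locus prefix took a median of 0.120% and 0.101% of UMIs in high-score cells, against 0.160% and 0.133% in low-score cells. Any mitochondrial genes listed under other symbols are not in this share, so it is not the whole mitochondrial content. All these cells held at least 1000 genes, and 46 barcodes occurred in both libraries. Depth was examined in 2 ways given below, with low-score cells drawn to match the UMI totals of the high-score cells, 1 for 1, and with every cell thinned to 5000 UMIs before summing.

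Whether the score genes move together was read by leaving each one out of the score, choosing the cells again on the other 4, and reading the gene left out. LDHA was then at 1191 and 1111 CPM in the highest 5%, against 751 and 666 CPM in the lowest 25%. The log2 fold change was 0.82 ± 0.03 (SE of the fit, n = 2 libraries, adjusted p = 3.71e-16, edgeR quasi-likelihood test with Benjamini-Hochberg adjustment). PGAM1 changed by 0.79 ± 0.03, TPI1 by 0.69 ± 0.05 and ALDOA by 0.66 ± 0.03, and all 4 glycolytic genes passed. By the same test in its own fit PGAM1 had an adjusted p of 4.00e-09, with a change and SE close to those of LDHA. The size of these p-values therefore depends on how far each fit moderated the spread. Of all genes tested, 1.40% were called higher and 3.74% lower with LDHA left out, 0.806% and 3.39% with PGAM1, 0.865% and 3.14% with TPI1, and 1.55% and 4.72% with ALDOA.

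ADM did not follow the other 4. With ADM left out of the score, it was at 352 and 219 CPM in the highest 5%, against 522 and 270 CPM in the lowest 25%. The log2 fold change was -0.36 ± 0.06 (adjusted p = 0.000596), negative in both libraries (-0.50 and -0.21), below the size of 0.5 that a call required. The level of ADM declined from the lowest to the highest class in library 1, at 522, 454, 425, 385 and 352 CPM. In library 2 it was at 270, 244, 233, 218 and 219 CPM over the same classes. Of the 3 genes that mark these cells by their label, LDHA and ALDOA were thus high also when read outside the score, and ADM was not.

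Scores made from single genes, chosen after seeing the data, gave the same picture without any summing. In cells chosen as the highest 5% by ADM alone, LDHA was at 755 and 754 CPM, against 1051 and 948 CPM in the lowest 25% by ADM. PGAM1 was at 198 and 226 CPM in ADM-high cells, against 283 and 278 CPM in ADM-low cells. Read the other way, ADM was at 306 and 157 CPM in cells highest in LDHA, against 541 and 278 CPM in cells lowest in LDHA. The exception was ALDOA: cells highest in ALDOA had 476 and 288 CPM of ADM, against 436 and 226 CPM in cells lowest in ALDOA. These pairs of values have no test.

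**Figure D2:**
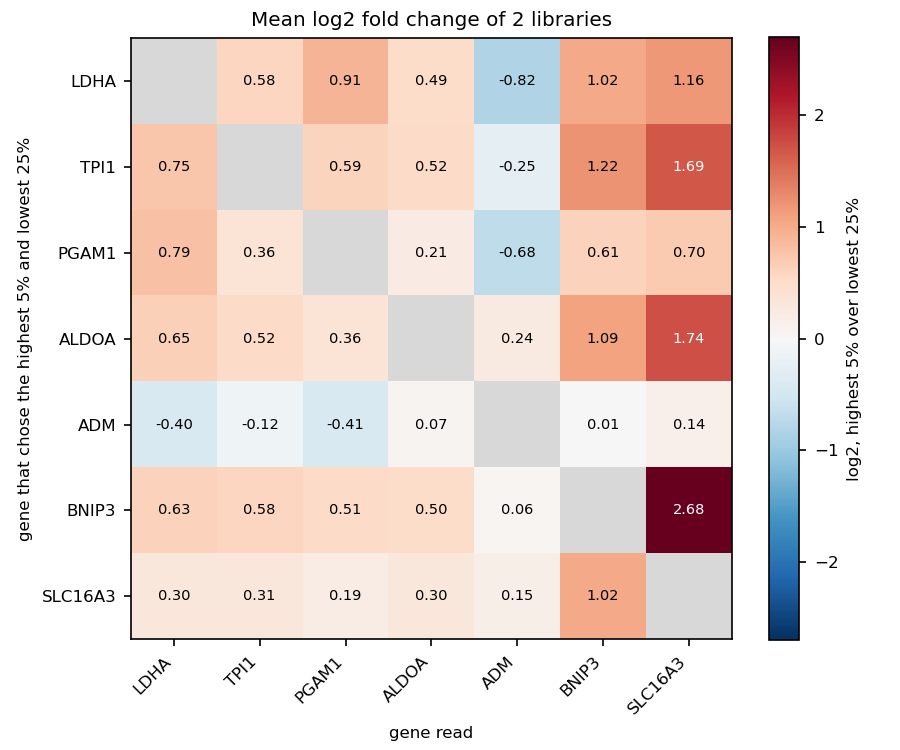
Mean log2 fold change over 2 libraries (colour and number) of the gene in each column, between the highest 5% and the lowest 25% of cells by the gene in each row alone. The 4 glycolytic score genes raise each other, BNIP3 and SLC16A3, while ADM is at -0.82 in LDHA-high cells and 0.24 in ALDOA-high cells.

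Other enzymes of the pathway, which the score did not use, were higher in high-score cells. Across the pathway 8 of the 16 listed enzymes passed and 0 were lower, with a median log2 fold change of 0.45, where 0.873% of 17182 genes tested were called higher, 3.86% lower, and the median of all genes was -0.07. At the entry of the pathway, the hexokinase HK1 was at 191 and 241 CPM in high-score cells against 162 and 195 CPM in low-score cells (0.36, below the size required), whereas HK2, the inducible hexokinase, was at 63.6 and 28.5 CPM against 106 and 24.0 CPM and went opposite ways in the libraries (-0.67 and 0.35). GPI, which isomerises glucose phosphate, was at 321 and 316 CPM in high-score cells against 184 and 154 CPM in low-score cells, a log2 fold change of 1.01 ± 0.06. Both high-score values of GPI lay above both low-score values.

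The phosphofructokinase genes PFKL and PFKP, whose products commit sugar to glycolysis, were higher by 0.88 ± 0.05 and 0.55 ± 0.07 on the log2 scale. PFKL was at 100.3 and 92.1 CPM in high-score cells against 59.2 and 52.4 CPM in low-score cells. The regulator gene PFKFB3 was low in both, at 7.16 and 3.41 CPM against 10.1 and 3.91 CPM (-0.30), and did not pass. ALDOC, the third aldolase isoform, was at 50.8 and 43.1 CPM in high-score cells against 22.8 and 21.8 CPM in low-score cells (1.16 ± 0.08, adjusted p = 7.39e-07), the largest rise among the 16 enzymes.

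In the energy-yielding steps, PGK1, which makes the first ATP of the pathway, was at 149 and 140 CPM in high-score cells against 83.4 and 72.9 CPM in low-score cells (0.98 ± 0.04, adjusted p = 1.97e-08). The more abundant genes of these steps rose less on the log2 scale. GAPDH was at 9580 and 9033 CPM against 6977 and 6555 CPM (0.55 ± 0.02), ENO1, the main enolase, at 2212 and 2453 CPM against 1449 and 1524 CPM (0.74 ± 0.03), and PKM, the pyruvate kinase of dividing cells and muscle, at 3032 and 3181 CPM against 2180 and 2164 CPM (0.61 ± 0.03). LDHB, the other lactate dehydrogenase chain, was at 938 and 852 CPM against 800.5 and 736 CPM (0.31) and did not pass. Summed over the 16 enzymes the level was 16729 and 16484 CPM in high-score cells and 12112 and 11581 CPM in low-score cells.

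The largest rise was in the RNA of a lactate exporter, among genes at 10 CPM or more in the higher of the 2 classes in both libraries. Placeholder names were left out. A gene could thus enter this ranking, and those below at 10 CPM, through 1 class alone. SLC16A3, which encodes the lactate exporter MCT4, was at 55.7 and 55.4 CPM in high-score cells against 15.1 and 12.4 CPM in low-score cells, a log2 fold change of 2.11 ± 0.08 (adjusted p = 4.01e-09). It increased through every class in both libraries. SLC2A1, the glucose transporter GLUT1, was at 38.8 and 38.7 CPM against 25.5 and 23.3 CPM (0.76 ± 0.06). The other 3 of 5 transport genes did not pass: BSG, the chaperone of lactate carriers, had a log2 fold change of 0.37, SLC2A3 (GLUT3) of 0.07 and SLC16A1 (MCT1) of -0.26. The list median was 0.37, beside -0.07 for all genes.

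Among 29 hypoxia targets outside glycolysis 4 rose and 0 fell, with a median of 0.22. BNIP3, which marks mitochondria for removal by autophagy, was at 532 and 551 CPM in high-score cells against 192 and 204 CPM in low-score cells. Its log2 fold change of 1.54 was the same in both libraries to 2 decimals (SE 0.03, adjusted p = 4.65e-12). ANKRD37, an ankyrin repeat gene induced by hypoxia, was at 22.3 and 16.3 CPM against 12.9 and 10.4 CPM (0.81 ± 0.08), and PDK1, the kinase that keeps pyruvate out of mitochondria, at 20.3 and 27.2 CPM against 14.1 and 18.1 CPM (0.65 ± 0.07). DDIT4, an inhibitor of mTOR signalling, was at 169 and 105 CPM against 151 and 59.2 CPM, and its log2 fold change of 0.57 ± 0.13 came mostly from library 2 (0.93, against 0.24 in library 1).

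Most other hypoxia targets did not pass. FAM162A, a mitochondrial death factor, was at 260 and 251 CPM in high-score cells against 186 and 199 CPM in low-score cells (0.4966, just under the size required). EGLN1, the prolyl hydroxylase that marks HIF proteins for degradation and is itself a target, had a log2 fold change of 0.45, and MIF, a cytokine, one of 0.37. KDM3A, a histone demethylase, went the other way, at 22.1 and 24.6 CPM against 38.7 and 30.5 CPM (-0.46), and NDRG1 was at 179 and 52.6 CPM against 260 and 54.9 CPM (-0.26). CA9, a carbonic anhydrase often used as a hypoxia marker, was at 9.11 and 9.03 CPM against 8.54 and 7.497 CPM (0.27). NDRG1 and CA9 were named after their values were seen.

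The genes of the HIF machinery, that is, HIF subunits and proteins that act on them, were not called higher. HIF1A was at 24.5 and 29.6 CPM in high-score cells against 30.4 and 32.3 CPM in low-score cells (-0.13), and its partner ARNT at 11.2 and 16.5 CPM against 15.5 and 23.1 CPM (-0.39), and neither passed. CUL2 (-0.15) and ELOC (0.14), parts of the ligase that tags HIF proteins, did not pass either. EPAS1, which encodes HIF-2 alpha, fell by 0.61 ± 0.13 on the log2 scale, to 22.0 and 10.7 CPM in high-score cells against 42.0 and 13.1 CPM in low-score cells. Its change was -0.86 in library 1 and -0.18 in library 2, and the high-score cells of library 1 lay above the low-score cells of library 2. EPAS1 did not fall when LDHA was left out of the score, as given at the end. In the list of 9 HIF machinery genes tested 0 rose and 1 fell, with a median of 0.03 (-0.06 when scaled by library totals). HIF proteins are controlled mainly by their breakdown, which RNA counts do not measure. Of 6 genes of adrenomedullin processing and reception 0 passed in either direction (median -0.15), the most abundant being PAM, the amidating enzyme, at 40.0 and 50.6 CPM against 56.0 and 61.3 CPM (-0.28), and ACKR3, a scavenging receptor, at 46.9 and 19.3 CPM against 53.3 and 17.1 CPM (0.04).

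**Figure D3:**
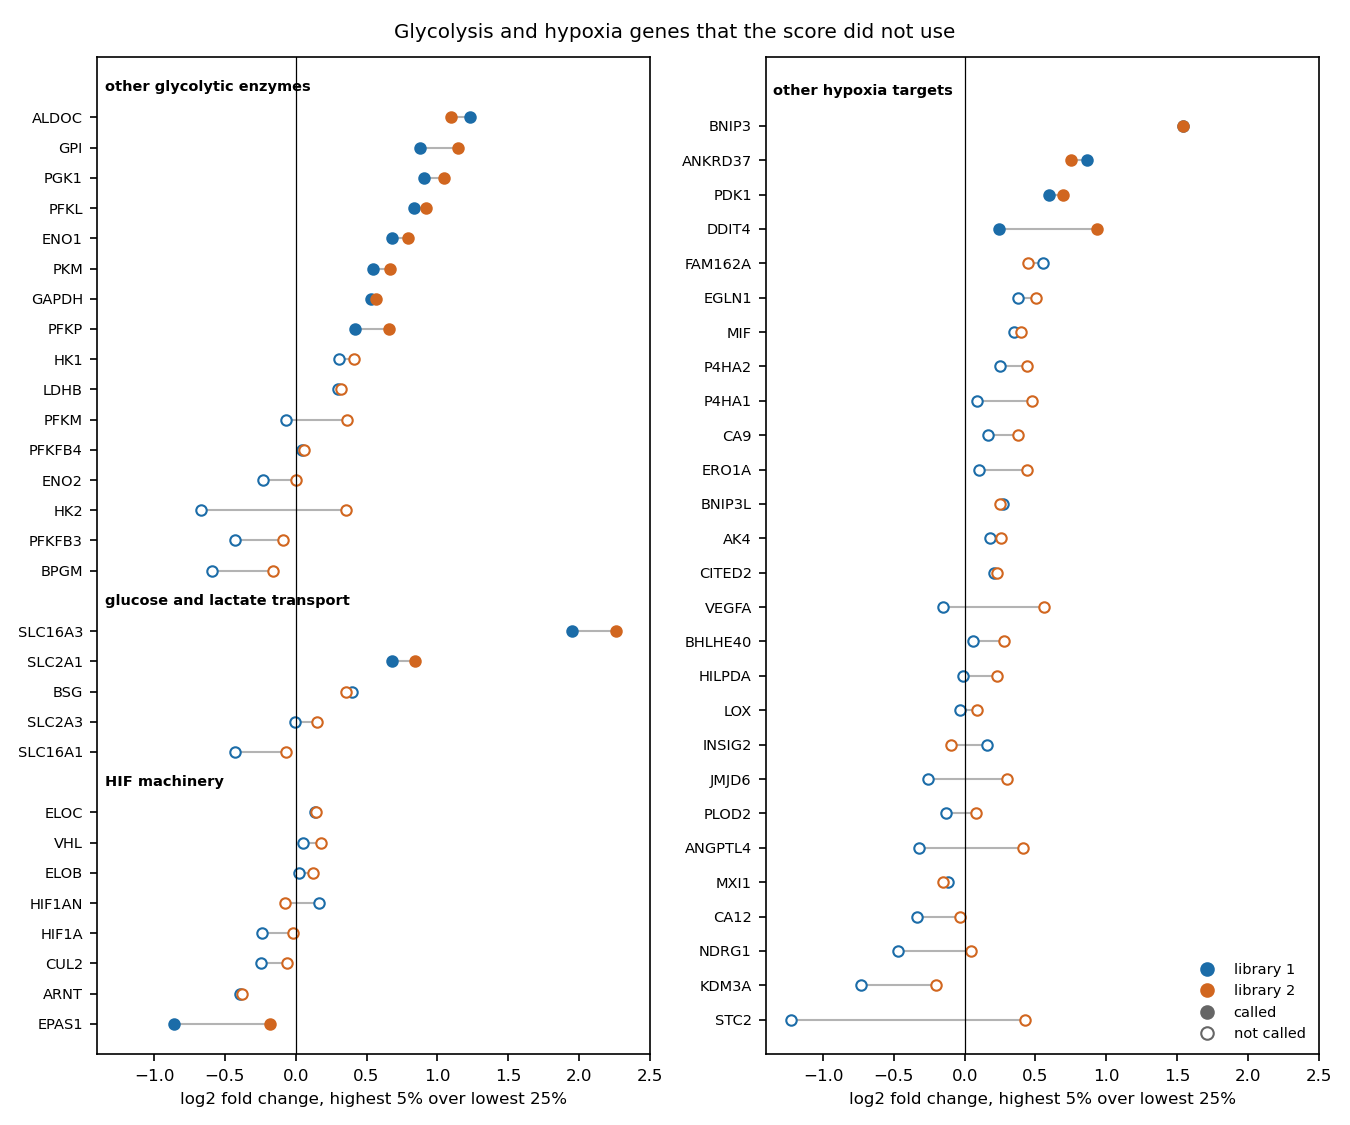
Log2 fold change, highest 5% over lowest 25% (horizontal axis), of the glycolysis, transport, HIF and hypoxia genes that the score did not use, 1 point per library and filled where the gene was called. Genes below 1 CPM in both classes of library 1 are left out. SLC16A3 (2.11) and BNIP3 (1.54) stand to the right, the glycolytic enzymes follow, and most hypoxia targets lie within 0.5 of 0.

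Few genes outside these pathways rose as much. In all, 150 of 17182 genes were higher and 664 lower in high-score cells, not counting the score genes, and scaling by library totals in place of TMM gave 82 higher and 1281 lower, with the median of all genes at -0.16. The share of higher genes among all calls was 18.4% with TMM and 6.02% with library totals. With library totals 6 of the 16 glycolytic enzymes and 3 of the 29 hypoxia targets were higher, and 0 and 1 lower. After SLC16A3, the largest rises among genes at 10 CPM or more were those of NDUFA4L2, a hypoxia-induced gene that dampens respiratory complex I, at 14.2 and 11.8 CPM in high-score cells against 4.50 and 4.82 CPM in low-score cells (1.56 ± 0.15), and of BNIP3. PRSS23, a serine protease gene, was at 33.9 and 84.8 CPM against 20.0 and 29.6 CPM (1.32 ± 0.14), with no overlap between the classes. ALDOC, GPI, PGK1 and PFKL followed together with FABP3, a fatty acid carrier, at 181 and 119 CPM against 88.7 and 71.2 CPM (0.98 ± 0.06), and with ANKRD37. Thus 7 of these 10 genes were on the glycolysis, transport or hypoxia lists.

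Among genes at 10 CPM or more in the higher class, here the low-score cells, the largest falls were smaller than the largest rises. They spread over other functions. CLEC3B (tetranectin, a plasminogen-binding protein) was at 6.14 and 5.07 CPM in high-score cells against 18.2 and 13.9 CPM in low-score cells (-1.43 ± 0.12). The chemokine gene CCL5 was at 10.7 and 3.96 CPM against 19.6 and 10.1 CPM (-0.97 ± 0.13), ASPN, a small proteoglycan that binds collagen, at 19.5 and 25.8 CPM against 34.3 and 60.4 CPM (-0.96 ± 0.13), and PAPPA, a protease that frees insulin-like growth factors, at 26.6 and 40.8 CPM against 59.2 and 78.3 CPM (-0.95 ± 0.09). ARHGAP24 (a Rac regulator, -0.96), BMPER (a BMP-binding protein, -0.92), SLC43A2 (an amino acid transporter, -0.89), SVIL (an actin-binding protein, -0.89), C9 (a complement component, -0.88) and AUTS2 (a nuclear regulator known from brain development, -0.86) completed the 10. AUTS2 declined to 45.2 and 64.7 CPM in high-score cells, against 87.2 and 125 CPM in low-score cells. CCL5 and ASPN were not lower when LDHA was left out of the score, as given at the end.

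Genes called lower were long. By the RefSeq annotation, the median genomic span was 12.1 kb for genes called higher and 86.1 kb for genes called lower, against 26.7 kb for all genes tested with a span (17146). Across genes, which share libraries and depth, the rank correlation of log2 fold change with span was -0.32 as a description. Genes spanning over 100 kb took 7.84% and 9.54% of the UMIs of high-score cells, against 10.7% and 11.6% of those of low-score cells. The part of gene span in the falls named here was not tested.

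Set against the middle 50% of cells (25 to 75% by score) in place of the lowest 25%, far fewer genes differed: 17 of 16805 were higher (0.101%) and 5 lower (0.0298%), and 16 of the 17 and 4 of the 5 were also called against low-score cells. Several metabolic genes were among those that rose. SLC16A3 was at 55.7 and 55.4 CPM in high-score cells against 22.4 and 22.5 CPM in the middle cells (1.36 ± 0.08), BNIP3 at 532 and 551 CPM against 273 and 291 CPM (0.99 ± 0.03), and NDUFA4L2 at 14.2 and 11.8 CPM against 5.29 and 4.17 CPM (1.51 ± 0.14). ALDOC (0.80), GPI (0.61), PGK1 (0.56), ANKRD37 (0.52) and MPI (0.51), which links glycolysis to mannose, also passed, so that 3 of 16 glycolytic enzymes and 2 of 29 hypoxia targets were higher. CA4, a membrane carbonic anhydrase, at 8.18 and 14.6 CPM against 5.38 and 5.99 CPM (1.07), and APLN, the vasoactive peptide apelin, at 5.76 and 5.15 CPM against 2.75 and 3.27 CPM (0.90), were among the others. The largest rise was that of WT1 (3.51), which had few counts, at 1.21 and 0.713 CPM against 0.137 and 0.0397 CPM. PRSS23 rose by 1.01, to 33.9 and 84.8 CPM against 22.6 and 37.2 CPM. The 5 lower genes were CCL5 (-0.74), CLEC3B (-0.66), PAPPA (-0.65), the hedgehog factor GLI2 (-0.57) and B3GALT1 (-0.53). MPI, CA4, APLN, WT1, GLI2 and B3GALT1 were named after their values were seen.

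With the low-score cells matched on depth, 0.516% of 17042 genes were higher and 2.22% lower, and 6 of 16 glycolytic enzymes, 2 of 5 transport genes and 4 of 29 hypoxia targets rose. SLC16A3 was then higher by 2.08 and BNIP3 by 1.57 on the log2 scale. Of 55 named genes 22 no longer passed, PFKP (0.44), GAPDH (0.49) and DDIT4 (0.54) among them. Matching left 479 and 580 low-score cells, so a call could also end through the smaller sums. The parts of depth and of cell number in the lost calls were not tested. Against these matched cells 0 genes rose in the lists of the citric acid cycle, the respiratory chain, the pentose phosphate pathway, cholesterol synthesis, cytosolic chaperones, antioxidant genes, the abundant cytoskeleton, contractile genes and collagen modifying enzymes, and 0 immediate early genes fell. With every cell thinned to 5000 UMIs, 204 genes were higher, 80 of them among the 150, and 661 lower, 269 of them among the 664. Then 7 glycolytic enzymes and 6 hypoxia targets rose, SLC16A3 was higher by 1.88 and BNIP3 by 1.5015 on the log2 scale, and 10 of the 55 named genes no longer passed.

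Of the mitochondrial lists, 1 of 22 genes of pyruvate entry and the citric acid cycle rose, MDH1 (cytosolic malate dehydrogenase, 0.59 ± 0.05), and 1 of 21 respiratory chain genes, ATP5B (a subunit of ATP synthase, 0.51 ± 0.03), with list medians of 0.26 and 0.24. In the pentose phosphate pathway RPE (0.53 ± 0.08) rose among 7 genes (median 0.33). Of 14 cholesterol synthesis genes 3 rose (median 0.31): FDPS was at 621 and 468 CPM in high-score cells against 468 and 323 CPM in low-score cells (0.56 ± 0.05), MSMO1 changed by 0.53 and NSDHL by 0.51. No gene fell in these 4 lists, and against depth-matched low-score cells 0 of these 6 genes passed (0.39 to 0.48 on the log2 scale).

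Lists of protein production and quality control held few genes that passed. The chaperone HSPA8 (0.53, median of its 16 cytosolic chaperones 0.28), the peroxidase PRDX1 (0.56, 7 antioxidant genes, median 0.21) and the tubulin gene TUBA1B (0.63, 15 abundant cytoskeleton genes, median 0.23) were the only members of their lists to pass, and none passed against depth-matched low-score cells (0.37, 0.47 and 0.49). In the lists of 23 proteasome subunits (median 0.35), 10 MYC and growth genes (0.28), 32 cytosolic ribosomal proteins (0.09), 16 chaperones of the endoplasmic reticulum (0.16), and 15 ATF4 and serine synthesis genes (0.15), 0 passed in either direction. The most abundant of these were PSMB6 (0.35), NPM1 (0.23), RPS2 (0.12), HSPA5 (0.31, at 0.02 in library 1 and 0.64 in library 2) and ATF4 (0.04). Lists of 11 interferon response genes (median 0.19, ISG15 0.56), 8 p53 and senescence genes (-0.12, GADD45A -0.04) and 9 stromal surface genes (0.02, or -0.07 by library totals, THY1 0.03) likewise had 0 called.

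Falls outnumbered rises among all genes (664 against 150), and the falls in matrix, inflammatory and growth factor lists stand beside 3.86% of all genes called lower. In the collagen and matrix list 3 of 18 fell, with none higher (median -0.28): ASPN, COL12A1, a collagen that decorates fibrils, at 195 and 108 CPM in high-score cells against 332 and 143 CPM in low-score cells (-0.51 ± 0.07), and OMD, a proteoglycan of bone, at 21.2 and 27.7 CPM against 27.5 and 47.3 CPM (-0.51 ± 0.10). Against depth-matched low-score cells 1 of the 18 fell, since ASPN (-1.01) and COL12A1 (-0.42) no longer passed. Of 11 collagen modifying enzymes LOXL2, a cross-linking oxidase, rose by 0.80 ± 0.18, chiefly in library 2 (1.12, against 0.23 in library 1; list median 0.15), and did not pass against depth-matched cells (0.87). In the TGF-beta list of 10, TGFBI (-0.72) and the inhibitor SMAD7 (-0.59) fell and 0 rose (median -0.19). Of 16 inflammatory genes CCL5, CCL20 and IL1A fell and 0 rose (median -0.14). IL1A was at 22.6 and 6.42 CPM against 37.5 and 10.6 CPM, and CCL20 at 3.07 and 0.238 CPM against 6.92 and 1.52 CPM. With LDHA left out of the score, the changes of CCL5, CCL20, IL1A, ASPN and OMD had the opposite sign, as given at the end. These falls thus depend on LDHA being in the score.

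Of 13 immediate early genes EGR1 (-0.80 ± 0.07, 63.6 and 73.8 CPM in high-score cells against 100.1 and 157 CPM in low-score cells) and FOSB (-0.51 ± 0.05) fell and 0 rose (median -0.02), and neither passed against depth-matched low-score cells (-0.42 and -0.44). Of 13 growth and angiogenic factors FGF2 (-0.57) and IGF1 (-2.42, below 1 CPM in high-score cells) fell and 0 rose (median -0.07). The preadipocyte regulator ZNF423 (-0.68) fell among 9 adipogenic genes (median -0.39), and LY6E, at 1.49 and 3.57 CPM against 1.21 and 1.33 CPM (1.11), rose among 6 interstitial progenitor genes (median -0.24). Of 10 contractile genes 3 rose and 0 fell (median 0.26). The counts of all these lists stand beside 0.873% of all genes called higher and 3.86% lower. TAGLN was at 277 and 401 CPM in high-score cells against 224 and 224 CPM in low-score cells (0.67 ± 0.12), MYL9 changed by 0.53 and ACTG2 by 1.18. Summed over the contractile list, the level was 2677 and 3683 CPM in high-score cells against 2700 and 3413 CPM in low-score cells. Against depth-matched low-score cells 0 of the 10 passed, with a median of 0.09 and with TAGLN at 0.45, MYL9 at 0.43 and ACTG2 at 0.06. ZNF423 (-0.4987) and LY6E (0.94) did not pass in that comparison either. Among the cell type markers, CIDEA of fat cells (-0.99) and ABCC9 of mural cells (-0.86) fell, and 0 of the rest passed. Some of these changes reversed with a gene left out of the score, as given at the end: CIDEA without LDHA, TAGLN and MYL9 without ADM, and LY6E without ALDOA.

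The share of dividing cells was close in high-score and low-score cells, the 2 ends of the score, and higher in the classes between. After thinning to 5000 UMIs, 38.4% (exact binomial 95% interval 34.0 to 42.9) and 35.3% (31.5 to 39.4) of high-score cells were cycling, that is, 3 or more of 15 core cycle genes were detected, against 36.4% (34.5 to 38.4) and 35.0% (33.3 to 36.8) of low-score cells. These intervals cover counting error only, and the cycling class is a range, since 6.47% and 7.93% of high-score cells held exactly 3 of the genes and 16.5% and 15.3% exactly 2. In the classes of 25 to 50%, 50 to 75% and 75 to 95%, the thinned share was 40.0%, 42.2% and 43.9% in library 1. In library 2 it was 41.4%, 43.4% and 41.6%, so the share did not follow the score in 1 direction. Without thinning the shares were 68.1% and 64.0% in high-score cells against 56.9% and 55.6% in low-score cells. Of 15 core cycle genes, 24 S phase genes and 20 late cycle genes 0 passed, with medians of 0.12, 0.22 and 0.09. UBE2C, a ubiquitin-conjugating enzyme of mitosis, was at 247 and 170 CPM in high-score cells against 197 and 176 CPM in low-score cells (0.24), TYMS, thymidylate synthase, had a log2 fold change of 0.24 and HMGB2, a chromatin protein, one of 0.02.

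The metabolic rises were seen both in cycling cells and in non-cycling cells, those with none of the 15 core cycle genes after thinning. Non-cycling cells were 18.4% (88 of 479) and 24.1% (140 of 580) of high-score cells, and cells with 1 or 2 of the genes belong to neither class. Within cycling cells 8 of 16 glycolytic enzymes and 5 of 29 hypoxia targets rose, where 0.794% of 15240 genes were higher and 2.93% lower. Within non-cycling cells 8 and 5 rose, where 1.76% of 13365 genes were higher and 5.06% lower. In the non-cycling cells 5 of 24 S phase genes, 2 of 20 late cycle genes and 1 of 15 core cycle genes also rose (medians 0.48, 0.24 and 0.12). SLC16A3 was higher by 2.31 in cycling cells and 2.23 in non-cycling cells on the log2 scale, and BNIP3 by 1.61 and 1.56. The difference between the cycle classes was not tested.

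The cycling share went opposite ways by the glycolytic genes and by ADM. With ADM left out of the score, 50.1% (45.5 to 54.7) and 46.2% (42.1 to 50.4) of the highest 5% were cycling, against 29.5% (27.7 to 31.4) and 30.3% (28.7 to 32.1) of the lowest 25%. With ADM alone as the score, a choice made after seeing the data, the shares were 11.9% (9.14 to 15.1) and 12.1% (9.53 to 15.001) against 56.9% (54.9 to 58.9) and 57.1% (55.2 to 58.9). The intervals of the highest 5% and the lowest 25% were apart in both libraries for both scores and overlapped for the 5-gene score.

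**Figure D4:**
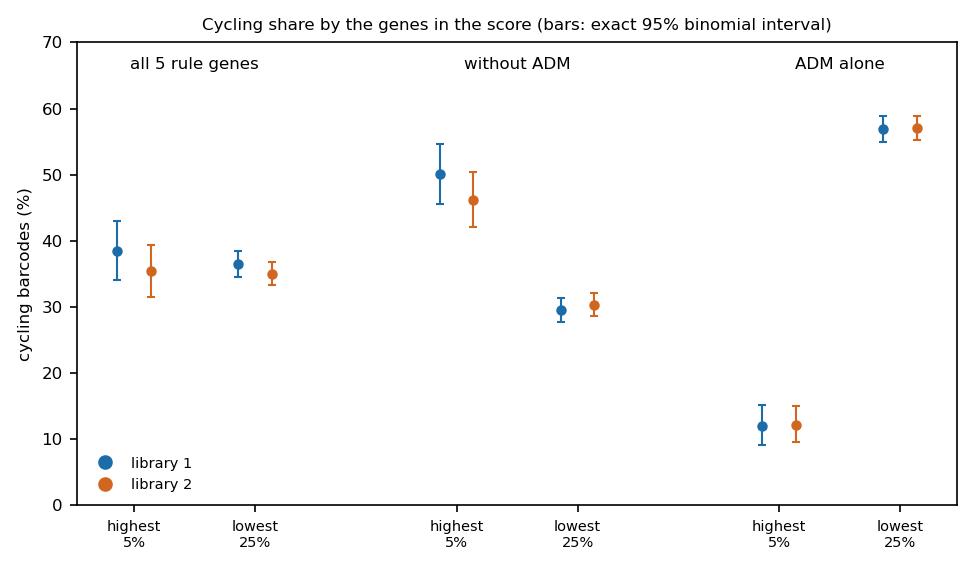
Share of cycling cells (%, vertical axis from 0) in the highest 5% and the lowest 25% by 3 scores, 1 point per library with its exact 95% binomial interval. The share is about even by all 5 genes (38.4% and 35.3% against 36.4% and 35.0%), higher in the highest 5% without ADM (50.1% and 46.2%) and lower with ADM alone (11.9% and 12.1%).

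Without ADM in the score, 3.22% of 17200 genes were called higher and 7.39% lower. Then 13 of 15 core cycle genes, 14 of 24 S phase genes and 18 of 20 late cycle genes rose and 0 fell. CCNB1, the mitotic cyclin B1, was at 134 and 108 CPM in the highest 5% against 60.3 and 49.9 CPM in the lowest 25% (1.21 ± 0.05), and CDC20, an activator of the anaphase-promoting complex, at 274 and 206 CPM against 131 and 94.0 CPM (1.17 ± 0.06). Of the 16 other glycolytic enzymes 8 rose, and 2 fell: BPGM, at -0.89, and HK2, at -0.57. The fall of HK2 was that of library 1 (56.9 against 115 CPM, -0.94), since library 2 had 24.9 CPM in the highest 5% against 26.8 CPM in the lowest 25% (-0.02). Of the hypoxia targets 3 rose, BNIP3 (1.54 ± 0.03), ANKRD37 (0.81) and PDK1 (0.63), and 3 fell, among them CA12 (-0.77) and KDM3A (-0.55). SLC16A3 (2.02 ± 0.08) and SLC2A1 (0.74) rose as before. Of 23 proteasome subunits 6 rose, led by PSMC1 (0.61), and 4 of 22 genes of pyruvate entry and the citric acid cycle rose, the cytosolic MDH1 (0.75), PDHB, a subunit of pyruvate dehydrogenase (0.55), the mitochondrial malate dehydrogenase MDH2 (0.55) and DLD, a subunit that several mitochondrial dehydrogenases share (0.51). Matrix genes fell in 7 of 18 cases, inflammatory genes in 7 of 16, adipogenic genes in 5 of 9 and p53 and senescence genes in 4 of 8. The inflammatory list also held 1 rise, that of IL33, an alarmin of the interleukin-1 family, at 387 and 394 CPM in the highest 5% against 252 and 299 CPM in the lowest 25% (0.59). Of 10 contractile genes 1 rose (ACTG2, 0.53) and 3 fell (median -0.39). The genes named for this score and for ADM alone were chosen after their values were seen.

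Cells highest in ADM alone had contractile, matrix and inflammatory genes high and cycle genes low, where 6.11% of 17284 genes were higher and 5.74% lower than in cells lowest in ADM. All 10 contractile genes rose (median 1.56): ACTA2, smooth muscle actin, was at 197 and 323 CPM in ADM-high cells against 27.7 and 47.9 CPM in ADM-low cells (2.86 ± 0.12), and TAGLN at 536 and 677 CPM against 127 and 122 CPM (2.34 ± 0.15). Of 7 mural cell markers 4 rose and 1 fell (median 1.04): ABCC9 was at 11.006 and 21.0 CPM in ADM-high cells against 4.93 and 10.4 CPM in ADM-low cells (1.14), KCNJ8 at 6.09 and 6.96 CPM against 3.09 and 3.58 CPM (1.04), NOTCH3 and DES stayed under 1.5 CPM, and CSPG4 fell by 0.72, to 9.37 and 11.6 CPM against 15.5 and 20.9 CPM. RGS5, a defining mural marker, was at 0.117 and 0.199 CPM in ADM-high cells, and the part of mural cells in the contractile values was not tested. Of 18 matrix genes 11 rose, with ASPN at 58.3 and 71.8 CPM against 13.1 and 20.1 CPM (2.05 ± 0.07), and of 16 inflammatory genes 10, with VCAM1, a leukocyte adhesion molecule, at 65.3 and 63.4 CPM against 17.7 and 17.9 CPM (1.93 ± 0.06) and IL6 at 88.9 and 26.7 CPM against 31.9 and 9.08 CPM (1.57 ± 0.06). Of 13 immediate early genes 9 rose. All 15 core and 20 late cycle genes and 22 of 24 S phase genes fell, TOP2A to 22.0 and 23.2 CPM against 131 and 172 CPM (-2.68 ± 0.08).

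Of the other glycolytic enzymes, HK2 alone rose with ADM among 16 (1.10 ± 0.13, 113 and 44.0 CPM in ADM-high cells against 64.6 and 16.9 CPM in ADM-low cells; list median 0.08). Hypoxia targets rose in 7 of 29 cases and fell in 0 (median 0.31), and the genes that rose included CA12 (1.69), ANGPTL4 (1.42), HILPDA (0.93) and VEGFA (0.56). BNIP3 stood at 279 and 317 CPM in ADM-high cells against 294 and 296 CPM in ADM-low cells, and SLC16A3 at 23.2 and 29.8 CPM against 24.4 and 23.4 CPM. EPAS1 was at 46.8 and 18.2 CPM in ADM-high cells against 19.9 and 6.72 CPM in ADM-low cells (1.38 ± 0.08). The highest 5% by ADM held a median of 17070 and 15082 UMIs, against 20957 and 19603.5 in the lowest 25%, and the part of depth and of the cycling share in these values was not tested.

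**Figure D5:**
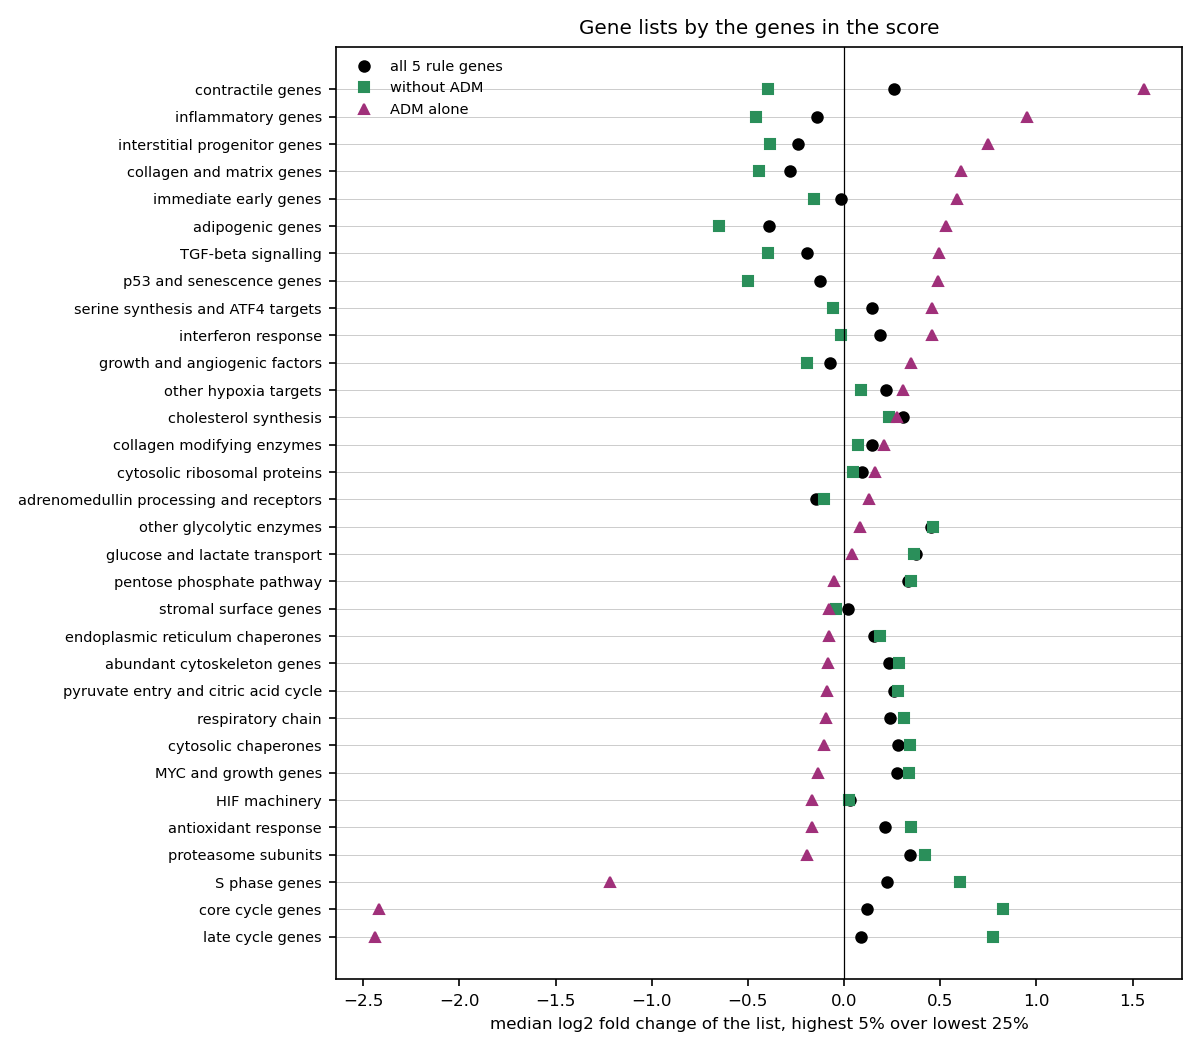
Median log2 fold change of 32 gene lists (horizontal axis, highest 5% over lowest 25%) by the 5-gene score, by the 4 glycolytic genes without ADM, and by ADM alone. Late cycle genes lie at 0.09, 0.77 and -2.44 and contractile genes at 0.26, -0.39 and 1.56 by these 3 scores, while the other glycolytic enzymes lie at 0.45, 0.46 and 0.08.

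Single cells of the high-score and low-score classes overlapped widely in the 6 genes read per cell. BNIP3 had a median of 477 and 508 CPM per cell in high-score cells, against 162 and 169 CPM in low-score cells, and 61.8% and 62.8% of high-score cells exceeded the 90th percentile of low-score cells. For ENO1 this share was 63.3% and 70.2%, for GAPDH 57.4% and 57.1%, for PKM 42.6% and 41.9% and for GPI 36.5% and 52.1%. SLC16A3, of which a cell of this depth holds few UMIs, had a median of 33.5 and 33.2 CPM in high-score cells and 0 in low-score cells, and 34.0% and 38.1% of high-score cells exceeded the 90th percentile of low-score cells (64.9 and 53.7 CPM). Its 10th percentile was 0 in both classes of both libraries, whereas that of BNIP3 was 174 and 204 CPM in high-score cells and 0 in low-score cells.

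The summed level of SLC16A3 was high in cells chosen by BNIP3, and that of BNIP3 in cells chosen by SLC16A3. Cells in the highest 5% by BNIP3 alone had 70.04 and 69.5 CPM of SLC16A3, against 11.4 and 10.4 CPM in the lowest 25% by BNIP3, log2 fold changes of 2.62 and 2.75. The glycolytic score genes shifted less: LDHA was at 1263 and 1069 CPM in BNIP3-high cells against 795 and 713 CPM in BNIP3-low cells, and TPI1 at 1293 and 1311 CPM against 876 and 866 CPM. ADM was at 440 and 261 CPM in BNIP3-high cells, against 445 and 238 CPM in BNIP3-low cells. Cells highest in SLC16A3 alone had 505 and 531 CPM of BNIP3, against 246 and 266 CPM in cells lowest in SLC16A3. These scores were chosen after seeing the data, and their values have no test.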

How the data were processed

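RNA of cultured pig ADSCs was measured in 2 droplet libraries. The deposited files hold raw UMI counts per gene and barcode, which per the file headers come from Cell Ranger 7.0.0, on Sscrofa11.1 per the submitters' processing notes. How intronic reads and reads shared with near-identical gene copies were counted is not given in the sources used here. Rows with the same symbol (83 symbols) were summed. Library 1 held 211527905 UMIs in 12251 barcodes and library 2 246316928 in 12956.

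Barcodes with at least 5000 UMIs were ranked by the 5-gene score. Counts were summed per library and score class (10 sums of 5 classes) and tested with edgeR 4.0.16 in R 4.3.3 (quasi-likelihood F test, TMM, filterByExpr, robust), the library as a replicate block because the classes of a library share it. Calls needed an adjusted p (Benjamini-Hochberg, over all genes tested) under 0.05, a log2 fold change of 0.5 or more in size, and libraries 1 and 2 agreeing in sign. On simulated data the fit recovered 80% of genes changed by a log2 of 0.75 and 98% by 1, with 5 false calls among 16955 genes. The simulation gave every gene the same spread, changed only genes with many counts, and changed them only in high-score cells. Its rates may therefore not hold for genes with few counts, a larger spread or levels graded over the classes. The other genes were not used by the score, but come from the same cells and share the total. CPM are summed counts per 1000000 by library totals, without the TMM factors used for the log2 fold changes. Small differences in CPM and in log2 fold change can therefore differ in sign. DESeq2 1.42.0 was an alternative, as were other scalings, thresholds, comparison classes and scores. Scrublet in scanpy 1.11.5 called 0 doublets and so had not worked, and none were removed. Gene symbols were matched to RefSeq for positions.

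The members and lists were chosen with earlier results of these data known. Named are called genes of the glycolysis, transport, hypoxia and HIF lists with up to 4 others at 10 CPM or more. Also named are the 10 largest rises and falls at 10 CPM or more in the higher class of both libraries. In other lists up to 4 called genes are named, or the most abundant where none was called. Of 537 list genes 517 were found, and the rest were not analysed here. A hypoxia target counted in its list is not reported here by name and is not drawn.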

Additional observations from a re-analysis of the deposited data

How the results depend on the processing

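The library was the replicate block, since the classes compared come from the same libraries. Without the replicate block 7 genes were higher (SLC16A3, BNIP3, ALDOC, PFKL, MPI, ENO1 and PKM, all also called with it) and 0 lower by edgeR, with 910 lower at an unadjusted p under 0.05 and 547 lower by DESeq2 with the block; 4 glycolytic enzymes and 1 hypoxia target were higher. The other counts that moved by over 1.5 times from 150 higher, 664 lower, 8 enzymes or 4 hypoxia targets follow. Library totals gave 82 and 1281 genes. The middle 50% gave 17 and 5 genes, 3 enzymes and 2 targets, and all other cells 52 and 123 genes, 3 enzymes and 2 targets. Depth-matched low-score cells, chosen after seeing the data, gave 88 and 379. Non-cycling cells gave 235 higher, and cells chosen on 1 random part of their UMIs and read in the other 92 higher. Leaving LDHA out of the score gave 240 higher, 5 enzymes and 7 targets, leaving ALDOA out 266 higher, and leaving ADM out 553 and 1271. The fall or rise of some genes reversed, and the cause was not tested. Without LDHA in the score the log2 fold change was 0.33 for CCL5, 0.14 for ASPN, 0.066 for EPAS1, 0.33 for OMD, 0.45 for CCL20, 0.48 for IL1A and 0.15 for CIDEA. Without ADM it was -0.22 for TAGLN and -0.15 for MYL9, without ALDOA -0.12 for LY6E, and in non-cycling cells 0.46 for CCL20. The cycling share of members (the high-score cells) had a mean of 36.9% (35.3% to 38.4% leaving out a library) and was 66.012% without thinning, 52.8% and 29.7% with at least 2 and at least 4 core genes, 48.2% with ADM left out of the score and 12.0% with ADM alone. Leaving out a library leaves 1 sum per class and no residual degrees of freedom, so counts of calls have no value then. Of 55 named genes, the missing replicate block ended the call of 49, the middle 50% of 44, all other cells of 34, and depth matching of 22. Leaving a gene out of the score ended the call of 27 and reversed 7 for LDHA, ended 16 for TPI1, 12 and reversed 1 for ALDOA, 10 for PGAM1, and 7 and reversed 2 for ADM. Choosing and reading in separate UMIs ended 16, library totals 12, thinning 10, the highest 10% in place of 5% 8, the highest 2% 7, non-cycling cells 13 with 1 reversed, and cycling cells 12 of 54. A fit of the compared classes alone ended 2, DESeq2 1, no filter 1, and RLE scaling and leaving out the highest doublet scores 0. The doublet scores came from the Scrublet run that called 0 doublets, so that comparison says little about doublets. The cell filter on gene number and mitochondrial share removed no cell, so it could not end any call. With 2 libraries and 4 residual degrees of freedom, changes under a log2 of 0.75 may be missed. Larger changes may also be missed in genes with few counts or a large spread.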
